A study of Homo sapiens with 4 samples.

Results

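The 9 genes described here are targets of the tumour suppressor p53 and regulators of apoptosis, taken from the 20037 protein-coding genes of the RefSeq table. They were chosen by name: CDKN1A, GDF15 and SESN1 act in growth arrest and stress, MDM2 in feedback on p53, BAX, BBC3 and FAS in cell death, and BCL2L1 and MCL1 in survival. For each gene, H3K14ac peaks were collected from its span extended by 10 kb on both sides, and all 9 genes were found in the table. The mark is histone H3 acetylated at lysine 14, and it was mapped by chromatin immunoprecipitation and sequencing in MKN45, an established human gastric cancer cell line. One group carried a short hairpin RNA against NIT2 (shNIT2) and the other a control hairpin (shNT). Each group had 1 H3K14ac library with a deposited peak list, so no difference has a replicate check and no test across samples was possible. The 4 samples also include an input of each group, not analysed here. The labels name no drug treatment and do not say how many NIT2 hairpin sequences were used.

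The p53 protein binds paired half-sites in DNA and turns on genes for arrest, repair and death after damage. Its target MDM2 is a ubiquitin ligase that marks p53 for degradation and so closes a feedback loop. At mitochondria, BAX opens the outer membrane, BBC3 (the protein PUMA) frees it, and BCL2L1 (BCL-XL) and MCL1 hold it back. H3K14ac is a mark of active promoters and enhancers. A list of peaks shows where the mark stood above background, not how much RNA a gene made.

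The 2 lists differ in the background they were called over, and the total reads behind them are unknown. The caller's fragment pileup and local background at each summit were solved from the deposited fold and p-value. The lowest background, a floor that in this kind of caller rises with depth, was 2.48 fragments in shNIT2 and 0.278 in shNT, a ratio of 8.93. The median summit held 22 fragments in shNIT2 and 6 in shNT, and no shNT peak held fewer than 3. A peak over the floor therefore had to reach a pileup 3.63 times the background in shNIT2, against 10.8 times in shNT. Epithelial markers, which define the labelled cell type, had a peak at a start site in 10 of 10 genes in shNIT2 and 5 of 10 in shNT. Of 5 fibroblast and mesenchymal markers 2 had a peak anywhere in the extended span in shNIT2 and 1 in shNT, and of 5 immune markers 4 in each list. At a start site VIM and CD3E had one in shNIT2, and none of these 10 genes did in shNT. Over all protein-coding genes, 54.9% had a peak in the extended span in shNIT2 and 38.6% in shNT. The immune markers stood above that share in each list. At a start site the shares over all genes were 37.6% in shNIT2 and 6.16% in shNT.

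All 9 genes had at least 1 peak in the extended span in shNIT2, and 8 had one in shNT, where MCL1 had none. Over all protein-coding genes the shares were 54.9% in shNIT2 and 38.6% in shNT, and 27.4% had peaks in both lists as these 8 did. Within 1 kb of a listed start site, 9 genes had a peak in shNIT2 and 7 in shNT, where FAS and MCL1 had none. The background shares for start sites were 37.6% in shNIT2 and 6.16% in shNT, and 5.14% for both lists, which 7 of the 9 genes met. A peak in the top 10% of its list by fold lay at 6 genes in shNIT2 and at GDF15, MDM2 and BCL2L1 in shNT, against 11.3% and 1.2% of all genes. For genes whose start is not listed, MCL1 among them, both gene ends stood in for it. The genes were not drawn at random, so these shares describe them and are no test.

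**Figure D1:**
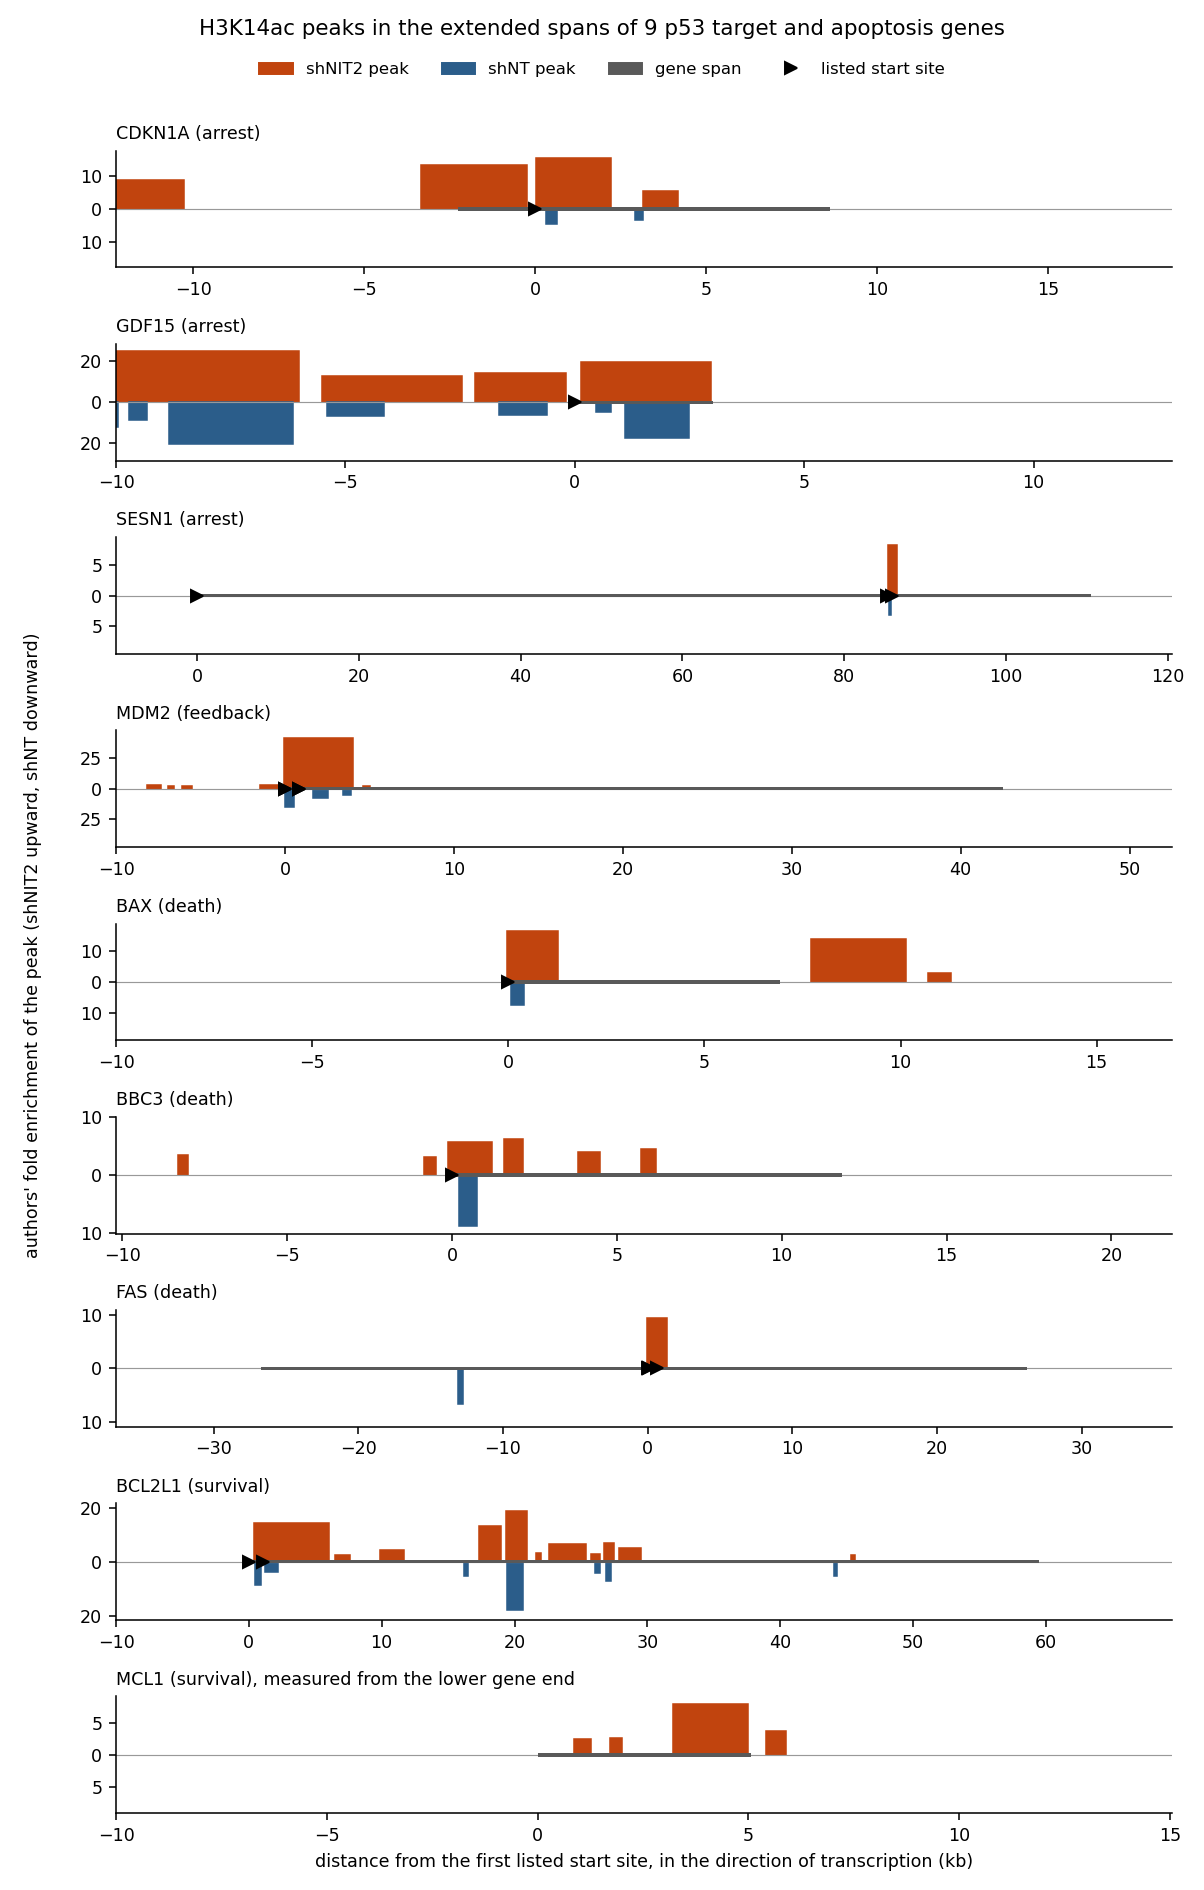
H3K14ac peaks in the extended spans of the 9 genes, by distance in kb from the first listed start site in the direction of transcription (for MCL1, from its lower gene end). Bar height is the authors' fold, with shNIT2 peaks drawn upward and shNT peaks downward, the grey line is the gene span and arrowheads are listed start sites. The scale differs between genes, and folds are not comparable between the lists. Every gene has shNIT2 peaks, MCL1 has no shNT peak, and the single shNT peak of FAS lies away from its starts.

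The shNIT2 list held 40 peaks in the 9 extended spans, from 1 at SESN1 and FAS to 11 at BCL2L1. In shNT there were 23, from 0 at MCL1 to 7 at GDF15 and BCL2L1. The median gene had 4 peaks in shNIT2 and 1 in shNT, against medians of 1 and 0 over all protein-coding genes. Peaks covered 12.2% of the summed extended spans in shNIT2 and 3.14% in shNT. The median member was covered for 11.6% in shNIT2 and 1.78% in shNT, while over all genes the medians were 0.458% and 0%. GDF15 was the one gene with fewer peaks in shNIT2 than in shNT (4 against 7), and 1 long shNIT2 peak there overlapped 3 of the shNT peaks. By summit, 12 of the 40 shNIT2 peaks lay within 1 kb of a start (for MCL1, of a gene end), 19 deeper inside the gene and 9 outside it. Of the 23 shNT peaks, 8 lay at a start, 10 inside and 5 outside, the last all before GDF15. At listed starts alone the member counts were 10 in shNIT2 and 8 in shNT. Over all genes, 6884 shNIT2 and 861 shNT summits lay within 1 kb of a start, beside 21212 and 11753 peaks in extended spans. The shNIT2 member count is near that proportion and does not set the members apart, while the shNT count is above it.

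**Figure D2:**
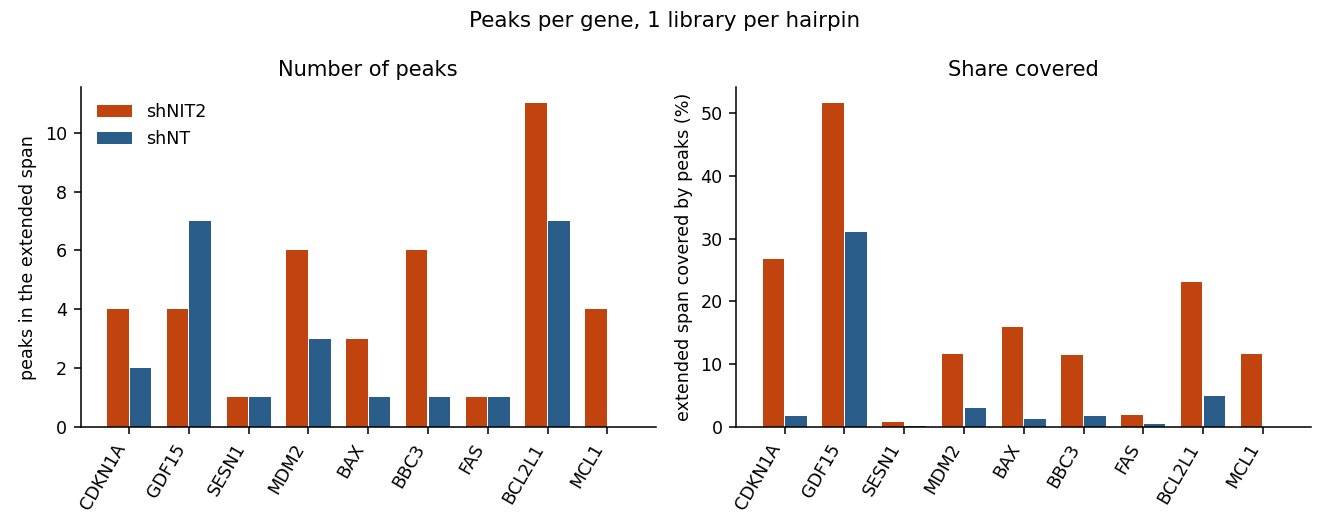
Left, number of peaks in the extended span of each gene. Right, share of that span covered by peaks in percent. In each pair the shNIT2 bar stands left of the shNT bar, and each bar is 1 library, so there are no error bars. Coverage is higher in shNIT2 for all 9 genes, with GDF15 the most covered in both lists (51.6% in shNIT2 and 31.0% in shNT).

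CDKN1A encodes p21, the inhibitor of cyclin-dependent kinases that carries out p53-dependent arrest (chromosome 6, 36676463 to 36687332 on hg38, plus strand). In shNIT2 it had 4 peaks, which covered 26.8% of the extended span. The strongest, from 36678750 to 36680937, peaked 291 bp after the listed start with 68 fragments (exact Poisson 95% interval 52.8 to 86.2, counting error only, as for all intervals here). Its authors' fold of 15.3 ranked above 98.3% of the shNIT2 list. A second wide peak, from 36675390 to 36678466, held 88 fragments and lay over the beginning of the gene span and over DINOL, a noncoding RNA induced by DNA damage. In shNT the gene had 2 narrow peaks, with 6 fragments (2.202 to 13.1) near the start and 4 (1.09 to 10.2) at 3102 bp after it. The shNT start peak, at a fold of 4.51, ranked above 39.7% of its list. Over background, the start pileups were 19.3 times (14.99 to 24.5) in shNIT2 and 10.9 times (3.996 to 23.7) in shNT, intervals that overlap. No shNT peak overlapped the wide DINOL peak. The remaining shNIT2 peaks, at the edge of the window before the gene and inside it, held 63 and 27 fragments.

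The 250 bases before the CDKN1A start, chr6:36678464-36678713, are printed because they fell almost wholly between peaks. The gap between the flanking shNIT2 peaks was 283 bp and left 3 of the 250 bases covered, and the nearest shNT peak began 324 bp away. Capitals mark 4 matches to the GC box GGGCGG, searched on both strands, of which the last 2 overlap. Over all promoters 53.7% held at least 1. The sequence is that of RefSeq, GRCh38.p14, plus strand, 5′ to 3′.
CDKN1A: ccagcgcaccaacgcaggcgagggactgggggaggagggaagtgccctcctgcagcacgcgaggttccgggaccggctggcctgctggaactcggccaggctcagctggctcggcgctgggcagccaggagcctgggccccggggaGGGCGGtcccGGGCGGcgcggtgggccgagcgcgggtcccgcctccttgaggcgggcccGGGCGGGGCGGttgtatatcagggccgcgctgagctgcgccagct

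GDF15, a secreted stress cytokine of the TGF-beta superfamily, carried the densest marking of the 9 genes (chromosome 19, 18386158 to 18389176, plus strand). In shNIT2 its 4 peaks held 158, 74, 91 and 129 fragments in genome order, with folds of 24.7, 12.6, 14.4 and 19.7. The first and widest, 7758 bp from 18372395 to 18380152, peaked 8507 bp before the start. In shNT the 7 peaks held 19, 11, 27, 9, 8, 6 and 24 fragments, and all 7 overlapped shNIT2 peaks. The highest summits stood in the same place in both lists, 28 bp apart, upstream of GDF15 and in no annotated gene. There the shNIT2 pileup was 29.02 times its background (24.7 to 33.9) and the shNT pileup 69.5 times (45.8 to 101.2). The widest shNT peak there, 2710 bp, exceeded 99.8% of the list in width.

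SESN1 encodes sestrin 1, which restrains mTORC1 signalling and protects against oxidative stress (chromosome 6, 108984309 to 109094846, minus strand). It had 1 peak in each list, at the same place. The shNIT2 peak, from 109008344 to 109009455, held 28 fragments (18.6 to 40.5) at a fold of 8.34, and the shNT peak 3 fragments (0.619 to 8.77) at a fold of 3.13. The 2 summits lay 75 bp apart. Over background, the pileups were 11.3 times (7.50 to 16.3) in shNIT2 and 10.8 times (2.23 to 31.6) in shNT, intervals that overlap. Both peaks sat at the inner start sites at 109008988 and 109009552. The outer start at 109094846 had no peak in either list within 1 kb. The 250 bases before it lay 85392 bp from the nearest shNIT2 peak and 54236 bp from the nearest shNT peak. The span of ARMC2 also overlaps the inner starts.

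MDM2 had the strongest peak of the 9 genes in shNIT2 (chromosome 12, 68808172 to 68850686, plus strand). That peak, from 68808099 to 68812179, held 450 fragments (409.4 to 493.6), 45.8 times its background. Its fold of 41.6 ranked above 99.98% of the shNIT2 list. The peak spanned 4081 bp and took in both promoters of the gene, the first at 68808172 and the inner one, known to respond to p53, at 68809017. In shNT the same stretch held 3 separate peaks with 28 (18.6 to 40.5), 15 (8.395 to 24.7) and 9 (4.12 to 17.1) fragments. The strongest shNT summit was 48 bp from the shNIT2 summit, 234 bp after the first start. Its fold of 14.9 ranked above 98.4% of the shNT list. Its pileup was 29.7 times its background (19.8 to 42.98), against 45.8 times (41.6 to 50.2) in shNIT2, intervals that overlap.

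The 250 bases before the inner MDM2 start, chr12:68808767-68809016, are shown because they hold a p53 full site and lay in the gap between shNT peaks. The shNIT2 peak covered all 250 bases. The nearest shNT peak ended 34 bp before them, and the gap to the next shNT peak was 1091 bp. Capitals mark 2 adjacent half-sites at −94 from the start. The search asked for a p53 full site on the printed strand and allowed 1 mismatch per half-site outside the C at position 4 and the G at position 7. It was set with the known MDM2 element in mind, so finding it there is no result. Of 22183 promoters searched, 24 held such a site (0.108%). Among the members' promoters these were the ones before the MDM2 starts at 68809017 and 68809024, which share the same site. The sequence is RefSeq, GRCh38.p14, plus strand, 5′ to 3′.
MDM2 inner promoter: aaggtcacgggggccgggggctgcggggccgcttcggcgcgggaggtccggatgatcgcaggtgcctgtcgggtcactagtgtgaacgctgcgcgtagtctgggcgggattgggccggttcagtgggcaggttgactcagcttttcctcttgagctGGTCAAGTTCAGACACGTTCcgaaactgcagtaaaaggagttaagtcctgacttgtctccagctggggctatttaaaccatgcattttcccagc

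**Figure D3:**
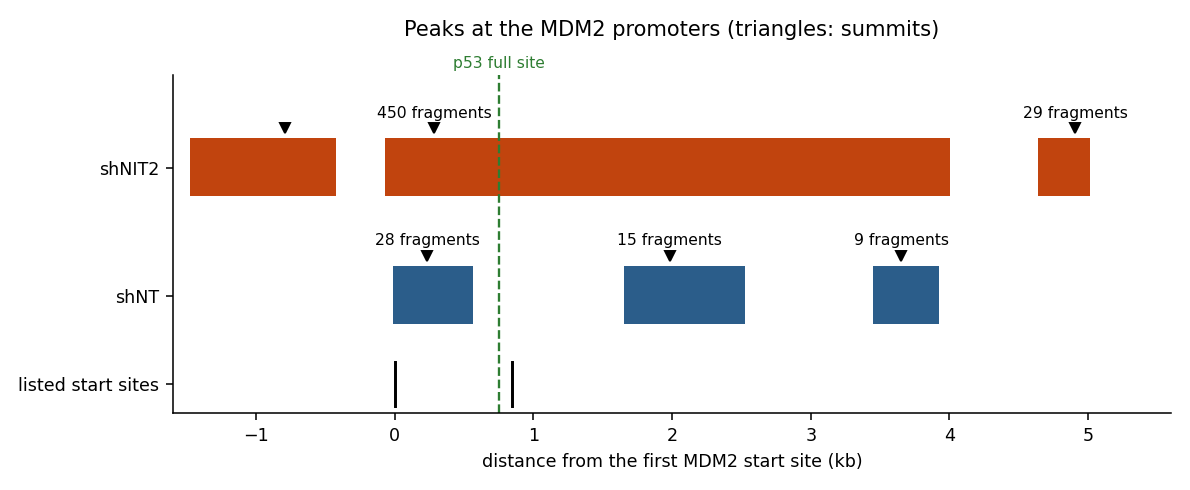
Peaks at the MDM2 promoters by distance in kb from the first start site. Bars span the peaks, triangles mark summits with their fragment pileups (450 in shNIT2, 28, 15 and 9 in shNT), ticks mark the listed starts and the dashed line the p53 full site. The line crosses the shNIT2 peak and falls between the first and second shNT peaks.

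Around that peak, shNIT2 held 5 weaker MDM2 peaks with folds between 2.08 and 3.30, and shNT none. The local background at MDM2 was raised in both lists. At the 6 shNIT2 peaks it was 7.49 to 13.4 fragments (3.02 to 5.40 times the floor), against a list median of 4.25 fragments. At the 3 shNT peaks it was 0.855 to 1.135 fragments (3.08 to 4.09 times the floor), against a list median of 0.387 fragments. The part of this background in the peak values was not tested.

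The death genes all had a peak at their starts in shNIT2, and BAX and BBC3 did in shNT. BAX, the pore-forming effector of mitochondrial apoptosis (chromosome 19, 48954875 to 48961798, plus strand), had a shNIT2 peak with 96 fragments (77.8 to 117.2) at 221 bp after the start and a fold of 16.3. The shNT peak there held 9 fragments (4.12 to 17.1) at a fold of 7.37, with its summit 12 bp away. Relative to background the pileups were 19.5 times (15.8 to 23.8) in shNIT2 and 25.3 times (11.6 to 47.99) in shNT, intervals that overlap. Both other shNIT2 peaks of the BAX window lay past its end, with 83 and 21 fragments, and their nearest start was that of FTL, the ferritin light chain gene, 816 bp and 350 bp away.

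The 250 bases before the BAX start, chr19:48954625-48954874, are printed for their E-boxes, the letters CACGTG, which read the same on both strands. They hold 4 of them, in capitals, with no overlap between them. Of 22183 promoters, 7.38% held at least 1. The shNIT2 peak covered the last 41 of these bases, and the shNT peak began 67 bp after them. The sequence is RefSeq, GRCh38.p14, plus strand, 5′ to 3′.
BAX: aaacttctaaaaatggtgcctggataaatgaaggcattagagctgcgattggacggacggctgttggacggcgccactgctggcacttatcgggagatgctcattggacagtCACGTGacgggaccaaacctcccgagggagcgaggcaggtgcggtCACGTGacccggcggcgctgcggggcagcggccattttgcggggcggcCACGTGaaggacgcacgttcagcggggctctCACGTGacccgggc

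BBC3, a BH3-only activator of death (chromosome 19, 47220824 to 47232860, minus strand), had 6 shNIT2 peaks of moderate strength. Their folds ran from 3.13 to 6.31, and the start-site peak held 66 fragments (51.04 to 83.97). The shNT list had 1 peak there with 14 fragments (7.65 to 23.5) and a fold of 8.74. The BBC3 peak stood higher within the shNT list, above 89.5% of its folds, than the matching peak within the shNIT2 list, above 73.7%. Relative to background the pileup was 6.09 times (4.71 to 7.74) in shNIT2 and 19.5 times (10.7 to 32.8) in shNT. The background at the shNIT2 peak was 4.37 times the floor, and at the shNT peak 2.58 times.

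FAS, a death receptor at the cell surface (chromosome 10, 88964050 to 89017059, plus strand), was the only gene with peaks in both lists that did not overlap. In shNIT2 its 1 peak, from 88990769 to 88992170, covered the listed starts with 54 fragments (40.6 to 70.5) and a fold of 9.54. It also lay in the spans of ACTA2, the smooth muscle actin gene, and the antisense RNA FAS-AS1. In shNT its 1 peak lay 12897 bp before the nearest listed start, from 88977681 to 88978058, with 8 fragments (3.45 to 15.8). That stretch belongs to the spans of both FAS and ACTA2.

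BCL2L1 had the most peaks of the 9 genes in shNIT2 (chromosome 20, 31664452 to 31723963, minus strand). Its 11 shNIT2 peaks covered 23.2% of the extended span, and its 7 shNT peaks 4.99%. The strongest shNIT2 peak was not at a start but inside the gene, 18606 bp after the inner start at 31722868 and 19701 bp after the outer one, from 31703014 to 31704618, with 114 fragments (94.04 to 136.9) and a fold of 18.8. The strongest shNT peak was the same one, with 27 fragments (17.8 to 39.3) and a fold of 18.1, its summit 10 bp away. Relative to background the pileup was 22.3 times (18.4 to 26.8) in shNIT2 and 48.99 times (32.3 to 71.3) in shNT. At the starts, the shNIT2 peak from 31717930 to 31723564 was 5635 bp wide and also held 114 fragments, while shNT had 2 peaks there with 5 and 13 fragments. The antisense RNA BCL2L1-AS1 overlaps the inner peaks. Of the 7 shNT peaks, 2 had no shNIT2 partner, each of 7 fragments.

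MCL1, a short-lived survival factor of the BCL2 family (chromosome 1, 150574558 to 150579610), was the one gene with peaks in shNIT2 alone, a call that ended with an extension of 25 kb, under which all 9 genes had a shNT peak. The state of a peak in shNIT2 alone was met by 27.5% of all protein-coding genes. Its 4 shNIT2 peaks held 25, 27, 68 and 32 fragments. The strongest, from 150577769 to 150579540, lay 436 bp inside the upper gene end with a fold of 8.03 and 68 fragments (52.8 to 86.2). The table lists no start or strand for MCL1. Its backgrounds were 3.06 to 3.84 times the shNIT2 floor.

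By role, the share of overlapping peaks differed more in the shNIT2 list than in the shNT list. Of the 9 shNIT2 peaks at arrest genes 8 overlapped a shNT peak, against 1 of 6 at MDM2, 2 of 10 at the death genes and 4 of 15 at the survival genes. Of the shNT peaks, 10 of 10 at arrest genes, 3 of 3 at MDM2, 2 of 3 at the death genes and 5 of 7 at the survival genes overlapped a shNIT2 peak. Over the extended spans of all protein-coding genes, 11.5% of shNIT2 peaks and 22.5% of shNT peaks overlapped. Thus 16.7% at MDM2 and 20% at the death genes lay near the general shNIT2 share. The peaks of 1 gene are not independent, and GDF15 alone gave 4 of the 8 and 7 of the 10. Coverage of the extended spans was 11.5% of arrest, 11.6% of feedback, 7.12% of death and 20.4% of survival genes in shNIT2. In shNT the same roles had 4.33%, 3.08%, 0.977% and 3.79%. The same summed coverage over all genes is not given here, so these values compare the roles only. The median strongest fold per gene was 15.3 for arrest, 41.6 for MDM2, 9.54 for death and 13.4 for survival genes in shNIT2. In shNT the order was another, with 4.51 for arrest, 14.9 for MDM2, 7.37 for death and 18.1 for survival, where BCL2L1 alone had a peak. Within the arrest group SESN1, with coverage of 0.852% in shNIT2, stood far below GDF15, with 51.6%, a wider range than that between the roles.

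In all, 15 of 40 shNIT2 peaks overlapped a shNT peak (37.5%, exact binomial 95% interval 22.7 to 54.2), and 20 of 23 shNT peaks overlapped a shNIT2 peak (86.96%, 66.4 to 97.2). Over the extended spans of all protein-coding genes the shares were 11.5% of 21212 shNIT2 peaks and 22.5% of 11753 shNT peaks. The intervals treat peaks as independent, which those of 1 gene are not, and BCL2L1 alone gave 11 of the 40. They are therefore no test against these shares. At the window edge, a CDKN1A peak and the long GDF15 peak of shNIT2 each overlapped a shNT peak beyond the window, and these were not paired. In the 20 overlapping pairs inside the windows every shNT peak was narrower than its partner. Over the whole lists, too, shNT peaks were narrower in the median (366 bp against 573 bp in shNIT2). The pileups of these pairs differed 9.05-fold in the median, shNIT2 over shNT, where the floors differed 8.93-fold. The quotient of pileups ran from 3.17 at a BCL2L1 peak to 50 at MDM2, where 1 shNIT2 peak met 3 shNT peaks. Paired summits lay a median of 404 bp apart, the pairs are not independent, and the part of depth in the quotient was not tested. For 7 of the 20 pairs the summits were within 100 bp.

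The ratios at the shNIT2 peaks were laid over the shNT floor as a description, with no account of raised local background. If each shNIT2 peak kept its ratio of pileup to background over the shNT floor, the 25 peaks without a shNT partner would hold a median of 1.12 fragments, and 21 of them fewer than the 3 of the smallest listed peak. The 15 peaks with a partner would hold a median of 4.51, and 5 of them fewer than 3. The value is no limit of detection. It lay below the observed shNT pileup at the strongest peaks, with 12.7 against 28 fragments at MDM2, 8.05 against 27 at GDF15 and 6.2 against 27 at BCL2L1. The strongest MCL1 peak had a value of 2.49, over a local background 3.06 times the shNIT2 floor, and the part of depth in its absence from shNT was not tested. For 4 peaks without a partner the value was 3 or more: 4.22 at the CDKN1A peak over DINOL, 4.51 at the peak before FTL, 3.15 at the FAS start and 4.21 at an inner BCL2L1 peak. Counts of this size carry wide counting error, as the interval of 1.09 to 10.2 around 4 fragments shows. In the other direction, the ratios of the 3 shNT peaks without a partner were laid over the shNIT2 floor. These peaks would hold 59.98 fragments at FAS and 33.6 and 35.04 at BCL2L1, where the smallest listed peak held 9. This comparison cannot tell peaks with and without a partner apart. A shNT peak over the floor already needed 10.8 times the background, against 3.63 times in shNIT2. A shNT CDKN1A peak of 4 fragments, which had a partner, would likewise hold 19.6.

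**Figure D4:**
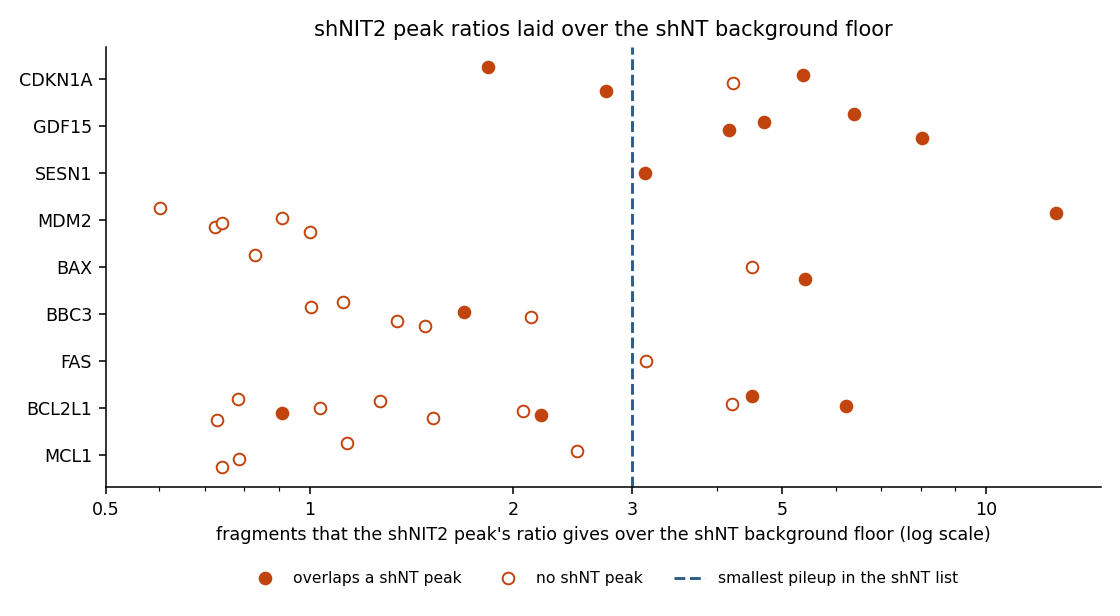
Fragments that each of the 40 shNIT2 peaks would hold if its ratio of pileup to background were laid over the shNT background floor, on a log scale, by gene. Filled points overlap a shNT peak, open points do not, and the dashed line marks 3 fragments, the smallest pileup in the shNT list. Of the 25 open points 21 lie left of the line, and of the 15 filled points 10 lie right of it.

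In shNIT2, peaks covered more of the bases before a start at the median member promoter than at the median promoter of all genes. The 250 bases before a start were listed for 16 starts of 8 members, and 15 of these had a shNIT2 peak within 1 kb. The median covered length of those 250 bases was 78 in shNIT2 for members, and 0 over the 8208 promoters of all genes with such a peak. The member promoters are not independent. MDM2 gave 4 of them and SESN1 and FAS 3 each, and some windows overlap at MDM2 and FAS. In shNT the median was 0 for the 12 member promoters with a peak and 0 for all 1205. Of the 10 shNIT2 summits within 1 kb of a listed member start, 5 lay after it, against 72.4% of 6884 over all genes. In shNT 6 of 8 member summits did, against 64.5% of 861. Of all promoters, 32.7% held the CCAAT box (CCAAT) and 9.01% the TATA box (TATAAA), searched on both strands. A match describes the letters in this window only. Both CCAAT and TATAAA were found before GDF15, CCAAT without TATAAA before BAX, MDM2, SESN1 and BBC3, and TATAAA before the outer start of BCL2L1.

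Beyond the 9 members, 45 other genes of the pathway were listed by role. Of these, 39 had a peak in the extended span in shNIT2 (86.7%) and 26 in shNT (57.8%), beside the backgrounds of 54.9% and 38.6%. At a start site the counts were 35 in shNIT2 and 7 in shNT, of 45, beside 37.6% and 6.16% of all genes. Both lists marked 24 genes, shNIT2 alone 15, shNT alone 2 and neither 4, where the shares over all genes were 27.4%, 27.5%, 11.2% and 33.9%. The list was chosen with earlier results of these data known.

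Arrest genes were led in shNIT2 by GADD45A, a damage-induced growth inhibitor (17.2-fold, 94 fragments), PLK3, a stress kinase (12.9-fold, at a peak outside its span), and SFN, the 14-3-3 sigma protein (11.2-fold). Of the 7 arrest genes, 6 had a shNIT2 peak (85.7%, beside 54.9% of all genes) and 2 a shNT peak (28.6%, below the 38.6% of all genes), with RPRM in neither list. The feedback genes had 7 of 7 in shNIT2 and 6 of 7 in shNT (85.7%), beside 54.9% and 38.6% of all genes. These feedback genes were led by the phosphatase gene PPM1D (10.002-fold), the cyclin G1 gene CCNG1 (8.75-fold) and ZMAT3, an RNA-binding p53 target (7.86-fold).

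Among 20 death genes, 18 had a shNIT2 peak (90%) and 13 a shNT peak (65%), beside 54.9% and 38.6% of all genes. AEN, an apoptosis-enhancing nuclease, had the highest value with 31.99-fold and 203 fragments in shNIT2, and 6.48-fold and 10 fragments in shNT. FADD, the adaptor of death receptors such as FAS, followed with 21.5-fold and 123 fragments in shNIT2, and 8.72-fold and 13 fragments in shNT. BMF, a BH3-only gene, reached 17.3-fold in shNIT2 inside the gene, with 8 peaks and none at a listed start. The apoptosome gene APAF1 (2 peaks) and the BH3-only gene HRK (1 peak) were marked in shNT alone. At each gene the strongest peak held 4 fragments and lay outside the gene span.

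Of 6 survival genes 3 had a peak in shNIT2 (50%) and 2 in shNT (33.3%), near the 54.9% and 38.6% of all genes. CFLAR, an inhibitor of death receptor signalling, had 17.3-fold and 75 fragments in shNIT2, and 5.80-fold and 8 fragments in shNT. BCL2L2 had 10.4-fold in shNIT2 alone, outside its span, and XIAP 4.30-fold. BCL2, BCL2A1 and BIRC5 had no peak in either list. The 5 genes of repair and metabolism all had a shNIT2 peak and 3 (60%) a shNT peak, beside 54.9% and 38.6% of all genes. This role was led by XPC (11.98-fold) and DDB2 (10.3-fold), both of nucleotide excision repair, and TIGAR (7.09-fold), which limits glycolysis.

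**Figure D5:**
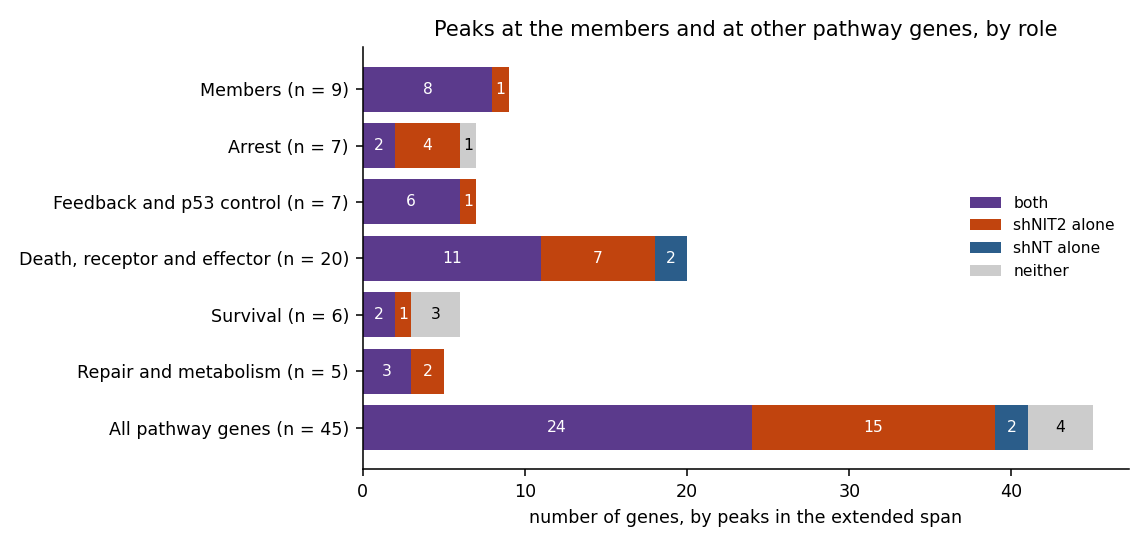
Number of genes with a peak in the extended span in both lists, shNIT2 alone, shNT alone or neither, for the 9 members, for 5 roles among the other pathway genes and for all 45 of those. Survival genes hold 3 of the 4 genes marked in neither list, and 2 death genes are the ones marked in shNT alone.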

How the data were processed

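Chromatin of MKN45 cells was fixed with formaldehyde, sonicated and sequenced from single ends, per the labels' protocols. MACS2 2.1.1, Bowtie2 2.2.6, ChIPseeker, cutadapt 1.9.1, FastQC and Trimmomatic 0.35 are named, with build hg38, per the submitters' processing notes. The use of input as control and the treatment of duplicates are not given in the sources used here. A deposited list belongs to 1 library. Per peak the authors deposited a score, a fold (the ratio of pileup to background at the summit, with a pseudocount of 1 on both), the −log10 p-value and the −log10 q-value. The smallest −log10 q was 1.30 in both lists, a q-value threshold of 0.05. Total reads are unknown.

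Genes came from RefSeq on GRCh38.p14, the assembly of hg38, and coordinates are 1-based. Start sites and strand came from RefSeq's promoter table. For the 4194 protein-coding genes not listed there, both gene ends were used. Peaks counted when they overlapped by at least 1 bp. A whole-number pileup and its background were solved from fold and −log10 p with the Poisson upper tail, within 0.1% of the −log10 p for 100% of peaks in each list, and the solution was tested on simulated data. Intervals are exact Poisson or Clopper-Pearson and cover counting error only. The ranks and folds are the authors' values and are used within a list. Members and gene lists were chosen with earlier results of these data known. All 9 members are named, and of the other pathway genes the 3 highest shNIT2 folds per role and every gene marked in shNT alone. Other pathway genes were named after their values were seen. Values of 1 gene of the pathway list are counted but not reported singly here. The alternatives were other thresholds, extensions, windows and overlaps. Python 3.11.15, pandas 2.3.3, scipy 1.17.1 and matplotlib 3.10.9 were used.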

Additional observations from a re-analysis of the deposited data

How the results depend on the processing

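Of 42 values under alternatives, 31 stayed within 1.5 times the reported count and 11 fell beyond it, 9 of them in shNT. At −log10 q of at least 10, the member peaks numbered 23 in shNIT2 and 8 in shNT, members with a peak in shNT 4, members with a shNT start peak 3, and other pathway genes in shNT 2. At −log10 q of at least 5, shNT kept 14 member peaks and 9 other pathway genes, and 13 of its member peaks were shared. Shared member peaks fell to 4 in shNIT2 and 4 in shNT at 50% reciprocal overlap, and to 12 in shNT with summits within 500 bp. All 9 members kept a shNIT2 peak at either threshold and at every extension. Shares over all genes are not given for these settings, so the counts do not set the members apart from other genes. CDKN1A, SESN1 and MCL1 had no shNT peak at −log10 q of at least 5. The cause of these moves was not tested. No paired analysis was possible because each group holds 1 library.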
